A study of Mus musculus with 6 samples.

Results

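Mitosis and chromosome segregation genes were followed in mouse dermal fibroblasts through a list of 38 genes. The genes were chosen by function, with earlier results of these data known, so counts over the list are not independent of these data. The list holds 9 mitotic kinases, the cyclins and the phosphatase Cdc25c that control Cdk1, components of mitotic proteolysis, the chromosomal passenger complex, kinesins, kinetochore proteins, spindle and cytokinesis factors, chromosome proteins and the transcription factor Foxm1. A gene was taken as measured when a row of the FPKM table carried its symbol alone, and 36 of the 38 had such a row among 46958 rows. Top2a and Foxm1 appeared only in rows merged with other symbols, and their values are given apart.

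Total RNA was sequenced from 6 libraries of primary fibroblasts, isolated from the dermis of newborn mice 1 to 2 days old, used at an early passage and pooled from different animals. By their labels, 3 libraries came from animals with intact nuclear receptor RORγ (wild type, RORγ+/+) and 3 from animals lacking it (knockout, RORγ-/-). Cells of both genotypes received 100 nM 20(OH)L3, a hydroxylated lumisterol, 20(OH)Cholesterol or 20(OH)7DHC, a hydroxylated 7-dehydrocholesterol, for 24 h in 0.1% ethanol with 10% charcoal-stripped serum. Each genotype and sterol has 1 library, no ethanol-only library was analysed here, and the 3 libraries of a genotype therefore differ in treatment and are not replicates of a single condition. Values below are in FPKM, fragments per kilobase of transcript scaled to the sequenced fragments of the library, and are listed in the order 20(OH)L3, 20(OH)Cholesterol, 20(OH)7DHC.

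Entry into mitosis is driven by Cdk1 with cyclins A and B, which Cdc25 phosphatases switch on. Aurora and Polo-like kinases then build the spindle, kinetochores attach chromosomes to it, and the checkpoint kinases Bub1, BubR1 and Mps1 hold back Cdc20 and the anaphase-promoting complex until all chromosomes are attached. Separase then frees the sister chromatids, and the central spindle and a contractile ring divide the cell. Most of these genes are transcribed late in the cell cycle and are low in cells that do not divide, so their level in cultured fibroblasts is widely read as a sign of proliferation. In bulk RNA, fewer dividing cells and less RNA per dividing cell cannot be told apart.

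Estimated depth was 12500000 to 13100000 fragments in the wild-type libraries, and 9100000, 7700000 and 13400000 in the others. Those labelled knockout with 20(OH)L3 and 20(OH)Cholesterol stood apart, with FPKM that summed to 1775205 and 1597788 over all rows against 866528 to 931596 in the other 4, and the pairs within 20(OH)7DHC, which leave them out, are given with the results. Of 10 fibroblast markers, 7 had a row of their own. They summed to 6837 to 7130 FPKM in wild type and 4459 to 5879 in the libraries labelled knockout. Of these 7, 4 passed the limma test described below as lower, where 6.64% of all tested rows did. Vim had 2844 FPKM or more in every library, whereas Dcn had 1254, 1489 and 1148 FPKM in wild type and 21.2, 5.74 and 16.6 in the others. Summed markers of keratinocytes lay at 4.2 to 5.49 FPKM in wild type and 6.33 to 12.3 in the libraries labelled knockout. Leukocyte markers summed to 6.31 to 7.94 and 6.99 to 13.1, endothelial markers to 0.963 to 1.69 and 1.49 to 4.56, and melanocyte and Schwann cell markers to 0.597 to 1.18 and 1.82 to 5.3 in the same order. Mural and muscle markers summed to 10.5 to 12.1 and 10.3 to 12.4, and adipocyte markers to at most 0.29 FPKM in any library. The leukocyte markers Adgre1 and Cd3e, the adipocyte markers Lep and Cidec and the melanocyte marker Dct were at 0 in every library. The Y-linked gene Eif2s3y had 35.0, 31.3 and 26.9 FPKM in wild type and 1.41, 0 and 0 in the libraries labelled knockout, so the groups also differed in Y-linked transcripts. The part of depth, of these markers and of Y-linked expression in the differences below was not tested.

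Many mitosis genes share promoter elements, and the matches are shown for 6 of the measured genes because these genes were low together in the libraries labelled knockout. The cell cycle homology region (CHR) recruits the DREAM and MuvB complexes, which repress these genes in resting cells and activate them before mitosis, and the CCAAT box binds the activator NF-Y. Both were searched on both strands, the CHR as TTTGAA or TTCGAA and the CCAAT box as CCAAT, in RefSeq windows of 300 bases on GRCm38.p6 that run from 250 bases before to 50 after each transcript start. The motifs and the choice of genes to print were settled after a first look at the matches. From each of 6 roles the gene with the highest wild-type level among those with both motifs is printed, 5′ to 3′ on the gene's strand, with the motif letters in capitals on whichever strand they lie.

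Cdk1, the kinase that starts mitosis (chr10:69352863-69353162, minus strand): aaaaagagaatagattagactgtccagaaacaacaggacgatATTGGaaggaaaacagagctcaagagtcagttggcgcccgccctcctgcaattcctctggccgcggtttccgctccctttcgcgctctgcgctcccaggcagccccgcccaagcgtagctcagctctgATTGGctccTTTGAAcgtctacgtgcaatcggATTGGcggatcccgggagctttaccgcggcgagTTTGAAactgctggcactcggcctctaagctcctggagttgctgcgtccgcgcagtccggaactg

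Ccnb2, a B-type cyclin (chr9:70421505-70421804, minus strand): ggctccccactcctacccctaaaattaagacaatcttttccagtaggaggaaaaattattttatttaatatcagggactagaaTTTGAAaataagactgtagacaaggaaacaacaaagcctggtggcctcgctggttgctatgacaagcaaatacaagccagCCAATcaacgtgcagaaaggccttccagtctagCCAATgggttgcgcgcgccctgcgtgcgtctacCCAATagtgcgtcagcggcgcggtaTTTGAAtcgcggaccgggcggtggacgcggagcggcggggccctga

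Ube2c, the ubiquitin-conjugating enzyme of the anaphase-promoting complex (chr2:164769679-164769978, plus strand): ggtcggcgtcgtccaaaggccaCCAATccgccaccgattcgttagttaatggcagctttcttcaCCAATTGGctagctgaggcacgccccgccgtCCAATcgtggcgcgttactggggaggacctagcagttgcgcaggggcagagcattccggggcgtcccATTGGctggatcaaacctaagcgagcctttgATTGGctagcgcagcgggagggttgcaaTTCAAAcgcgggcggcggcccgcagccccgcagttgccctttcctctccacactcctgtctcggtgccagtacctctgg

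Kif23, a kinesin of the central spindle (chr9:61946750-61947049, minus strand): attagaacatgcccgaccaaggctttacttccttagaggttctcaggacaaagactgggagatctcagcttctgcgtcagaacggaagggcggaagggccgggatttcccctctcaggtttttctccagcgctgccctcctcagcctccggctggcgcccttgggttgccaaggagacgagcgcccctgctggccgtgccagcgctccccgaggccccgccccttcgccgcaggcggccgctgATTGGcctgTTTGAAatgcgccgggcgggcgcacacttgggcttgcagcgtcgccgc

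Cenpa, the centromeric histone (chr5:30666636-30666935, plus strand): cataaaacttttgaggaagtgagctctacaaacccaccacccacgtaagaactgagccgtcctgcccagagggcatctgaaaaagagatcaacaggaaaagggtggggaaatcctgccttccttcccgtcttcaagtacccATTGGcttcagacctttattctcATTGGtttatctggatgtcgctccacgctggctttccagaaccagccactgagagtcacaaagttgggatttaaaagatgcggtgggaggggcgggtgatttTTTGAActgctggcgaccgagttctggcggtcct

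Prc1, a microtubule bundler of the central spindle (chr7:80294201-80294500, plus strand): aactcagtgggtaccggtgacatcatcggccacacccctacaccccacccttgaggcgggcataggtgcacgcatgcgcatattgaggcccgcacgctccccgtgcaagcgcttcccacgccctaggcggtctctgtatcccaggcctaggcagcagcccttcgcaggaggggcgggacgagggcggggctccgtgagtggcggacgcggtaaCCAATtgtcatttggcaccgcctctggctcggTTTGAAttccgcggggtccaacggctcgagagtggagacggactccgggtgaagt

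The table held a window for 31 of the 38 listed genes, and Aurkb, Ccna2, Incenp, Tpx2, Foxm1, Kif20a and Cdc25c had none. A CHR was found in 24 of the 31 (77.4%), against 21.7% of all 27025 genes in the table and 16% of the 7993 tested protein-coding genes that had a window. A CCAAT box was found in 24 (77.4%), against 41.1% and 42.8%, and both motifs shared a window in 21 (67.7%), against 8.61% and 6.82%. In 22 of the 24 genes with a CHR, a match began within 50 bases of the transcript start, while the CCAAT boxes lay mostly upstream of it. The windows end 50 bases after the start, so any match after the start counts as near it. Most of each window lies upstream, so matches placed anywhere in it would also lie mostly upstream. The share for other genes with a CHR is not given here. In Cdk1, the CHR matches began at -71 and -15 and the CCAAT matches at -208, -80 and -48, and in Ccnb2 the CHR matches began at -167 and 5 and the CCAAT matches at -87, -54 and -21. In Ube2c, CCAAT matches on opposite strands overlapped at -186 and -183. Windows of Birc5, Melk, Nuf2 and Nusap1 held neither motif, which says only that these letters are not in these windows. The genotype difference described below had a median of -1.72 on the log2 scale in the 23 tested genes with a CHR and -1.87 in the 7 without. The matches are a description of the sequence and were not tested as binding sites.

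**Figure D1:**
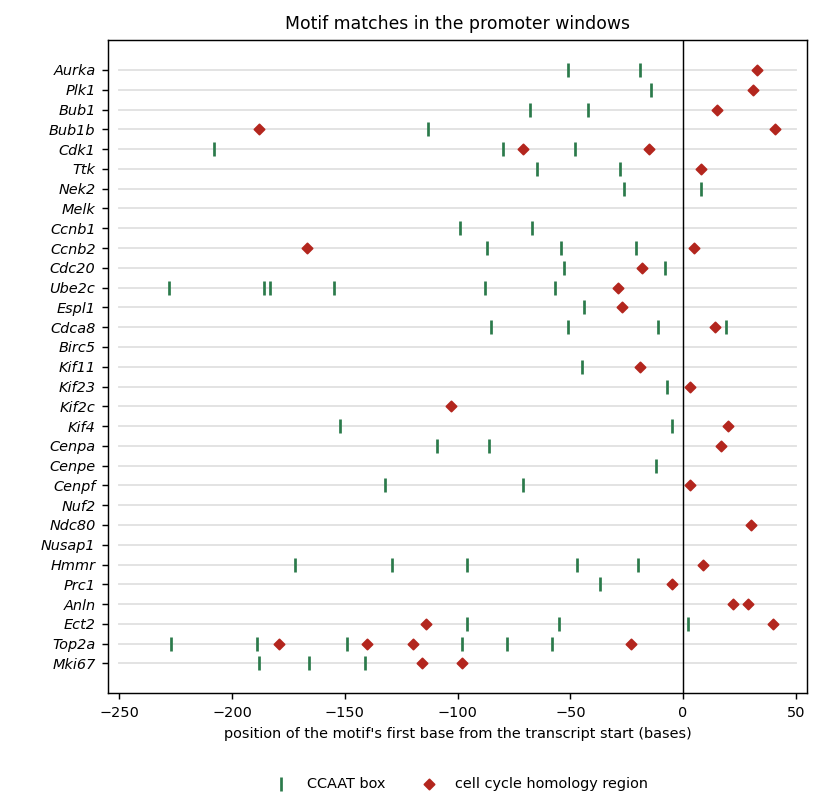
Position of each motif match in the promoter windows of 31 mitosis genes, in bases from the transcript start on the x axis, with 1 gene per line and the first window where a gene has several. Of the 24 genes with a diamond (cell cycle homology region), 22 have at least 1 within 50 bases of the start. Some of these genes have further diamonds upstream. CCAAT boxes (bars) lie mostly upstream. The windows run from 250 bases before to 50 after the start, so most of each window lies upstream.

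Mitosis genes were lower in the libraries labelled knockout with each sterol. All 36 measured genes had their highest labelled-knockout value below their lowest wild-type value, where 22.9% of the 12673 tested rows did. The wild-type mean ran from 1.55 to 74.3 FPKM with a median of 7.3, and the labelled-knockout mean from 0.243 to 20.4 with a median of 1.5. The labelled-knockout mean was 6.95% to 59.6% of the wild-type mean, with a median of 21.4%. By limma with Benjamini-Hochberg adjustment over all rows, at an adjusted p of 0.05, 28 of the 35 tested genes fell and none rose, where 6.64% of all rows fell and 2.43% rose. On the log2(FPKM + 1) scale, which understates the change of low genes, the 35 differences ran from -2.46 to -0.69 with a median of -1.72, against 0.00 over all rows. Cdc25c, with a mean of 0.956 FPKM, did not pass the filter of a mean of at least 1 FPKM. A further 15 of the tested genes passed that filter only through wild type, and 13 of these were called. Of the 20 genes with at least 1 FPKM in both means, 15 were called.

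Calls rested on few libraries. The fit had 2 residual degrees of freedom, and 1 after leaving out a library. With sterol as a term, a library whose sterol partner is left out adds nothing to the genotype estimate. Leaving out either library of a sterol thus removes that pair from the estimate, and the fits are not separate checks of single libraries. With either 20(OH)L3 library or either 20(OH)Cholesterol library left out it called none of the 35. Over all rows it then called 126 to 132 lower and 6 higher without an 20(OH)L3 library, and 0 without an 20(OH)Cholesterol library. With either 20(OH)7DHC library left out it called 16 of the 35, and over all rows 803 to 830 lower and 1034 to 1095 higher. Without the filter, 1 of 36 was called, and 242 of all 23461 rows were called lower. Each gene tested in these fits was lower in all of them.

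**Figure D2:**
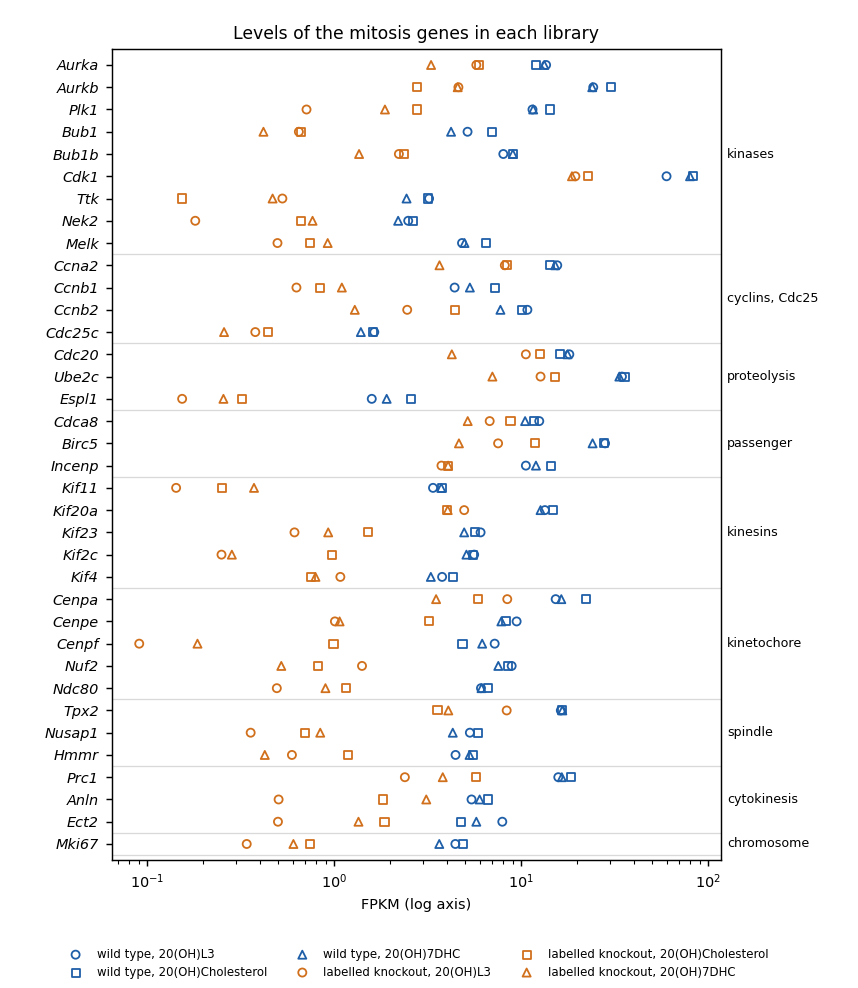
FPKM of the 36 measured mitosis genes in each of 6 libraries on a log x axis, grouped by role, with colour for the labelled genotype and marker shape for the sterol. All wild-type points lie to the right of all labelled-knockout points of the same gene, and Cdk1 is the highest gene in both genotypes.

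Of the 9 kinases, 8 fell, and their median difference was -1.81. Cdk1, the kinase that drives entry into mitosis, had 59.9, 83.0 and 80.0 FPKM in wild type and 19.5, 22.9 and 18.7 in those labelled knockout. The lowest wild-type library was thus well above the highest of the others, and the difference was -1.81 (SE 0.19, limma adjusted p = 0.0104). Cdk1 was the most abundant of the 36 genes per transcript length in both genotypes. Aurkb, the Aurora kinase of the chromosomal passenger complex, had 24.3, 30.4 and 24.0 FPKM in wild type and 4.62, 2.77 and 4.58 in the libraries labelled knockout. It fell by 2.46 on the log2(FPKM + 1) scale (SE 0.26, limma adjusted p = 0.00974). Aurka, the Aurora kinase of the spindle poles, had 13.6, 12.0 and 13.3 FPKM in wild type and 5.76, 5.98 and 3.3 in the libraries labelled knockout. Its groups were also apart, at a smaller log2 difference of -1.25 (SE 0.24, adjusted p = 0.0425), and the call was lost without the intensity trend and after quantile normalization. Plk1, the Polo-like kinase of mitotic entry and spindle assembly, had 11.5, 14.3 and 11.6 FPKM in wild type and 0.712, 2.78 and 1.87 in those labelled knockout. The library labelled knockout with 20(OH)L3 was the lowest for Plk1, and the fit gave -2.34 (SE 0.26, adjusted p = 0.0108).

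The kinases of the spindle checkpoint were lower as well. Bub1, which recruits checkpoint proteins to kinetochores, had 5.17, 6.95 and 4.22 FPKM in wild type and 0.648, 0.667 and 0.419 in the libraries labelled knockout. All libraries labelled knockout were below 1 FPKM, and Bub1 fell by 2.01 (SE 0.25, adjusted p = 0.0151). Bub1b, which encodes the Cdc20 inhibitor BubR1, had 8.03, 9.07 and 9.03 FPKM in wild type and 2.22, 2.37 and 1.36 in the libraries labelled knockout, and fell by 1.72. Ttk, which encodes the checkpoint kinase Mps1, had 3.22, 3.17 and 2.44 FPKM in wild type and 0.529, 0.153 and 0.469 in the libraries labelled knockout. It fell by 1.52 with an adjusted p of 0.0449, near the threshold, and was lost after quantile normalization or with a pseudocount of 0.1. Melk, a kinase widely expressed in dividing cells, fell by 1.90 from a mean of 5.44 ± 0.933 to 0.722 ± 0.214 FPKM (SD over the 3 sterols, n = 3). Nek2, a kinase of centrosome separation, had 2.49, 2.63 and 2.2 FPKM in wild type and 0.181, 0.669 and 0.767 in the libraries labelled knockout. Nek2 was the kinase that missed the threshold, at -1.18 (SE 0.30, adjusted p = 0.0748).

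Both B-type cyclins fell, and Ccna2 was not called. Ccnb1, the main cyclin partner of Cdk1 in mitosis, had 4.41, 7.23 and 5.32 FPKM in wild type and 0.629, 0.843 and 1.1 in the libraries labelled knockout, and fell by 1.83 (SE 0.25, adjusted p = 0.0201). Ccnb2 had 10.8, 10.1 and 7.75 FPKM in wild type and 2.46, 4.42 and 1.29 in the libraries labelled knockout, and fell by 1.58. Its highest library labelled knockout was that with 20(OH)Cholesterol. Ccna2, the cyclin of S phase and early mitosis, had 15.6, 14.2 and 15.2 FPKM in wild type and 8.18, 8.41 and 3.66 in those labelled knockout. The groups did not overlap, the library labelled knockout with 20(OH)7DHC was the lowest, and the gene was not called, at -1.11 (SE 0.28, adjusted p = 0.0715). The untested Cdc25c had 1.64, 1.62 and 1.39 FPKM in wild type and 0.379, 0.444 and 0.258 in the libraries labelled knockout.

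Of the 3 genes of proteolysis and separase, 1 fell. Ube2c had 34.6, 35.7 and 33.5 FPKM in wild type and 12.7, 15.1 and 7.02 in the libraries labelled knockout, and fell by 1.56 (SE 0.25, adjusted p = 0.027). Cdc20, the activator of the anaphase-promoting complex, had 18.1, 16.1 and 17.7 FPKM in wild type and 10.6, 12.6 and 4.26 in the libraries labelled knockout. Wild type was even over the sterols, the library labelled knockout with 20(OH)7DHC lay far below the others, and Cdc20 was not called at -0.96 (SE 0.33, adjusted p = 0.123). Espl1, which encodes separase, had 1.59, 2.58 and 1.91 FPKM in wild type and 0.154, 0.32 and 0.256 in the libraries labelled knockout. With a mean of 1.13 FPKM it was the tested gene nearest the filter, and at -1.27 (adjusted p = 0.0654) it was not called, though its labelled-knockout mean was 12.0% of wild type.

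Members of the chromosomal passenger complex, which corrects faulty attachments and then guides cytokinesis, spread widely. Beside Aurkb, its survivin subunit Birc5 had 28.1, 27.6 and 24.1 FPKM in wild type and 7.53, 11.9 and 4.65 in the libraries labelled knockout, and fell by 1.69 (SE 0.25, adjusted p = 0.0239). Its scaffold Incenp had 10.6, 14.5 and 12.0 FPKM in wild type and 3.75, 4.05 and 4.07 in the libraries labelled knockout, and fell by 1.42 (SE 0.19, adjusted p = 0.0185). The libraries labelled knockout were close to each other for Incenp, with an SD of 0.18 FPKM. Cdca8, which encodes borealin, had 12.5, 11.7 and 10.5 FPKM in wild type and 6.79, 8.77 and 5.18 in the libraries labelled knockout. It kept the largest share of its wild-type level among the 36 genes, 59.6%, and was not called at -0.69 (SE 0.20, adjusted p = 0.0921). The labelled-knockout means of the 4 subunits were thus 15.2% (Aurkb), 30.2% (Birc5), 32.0% (Incenp) and 59.6% (Cdca8) of wild type, and the differences between subunits were not tested.

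**Figure D3:**
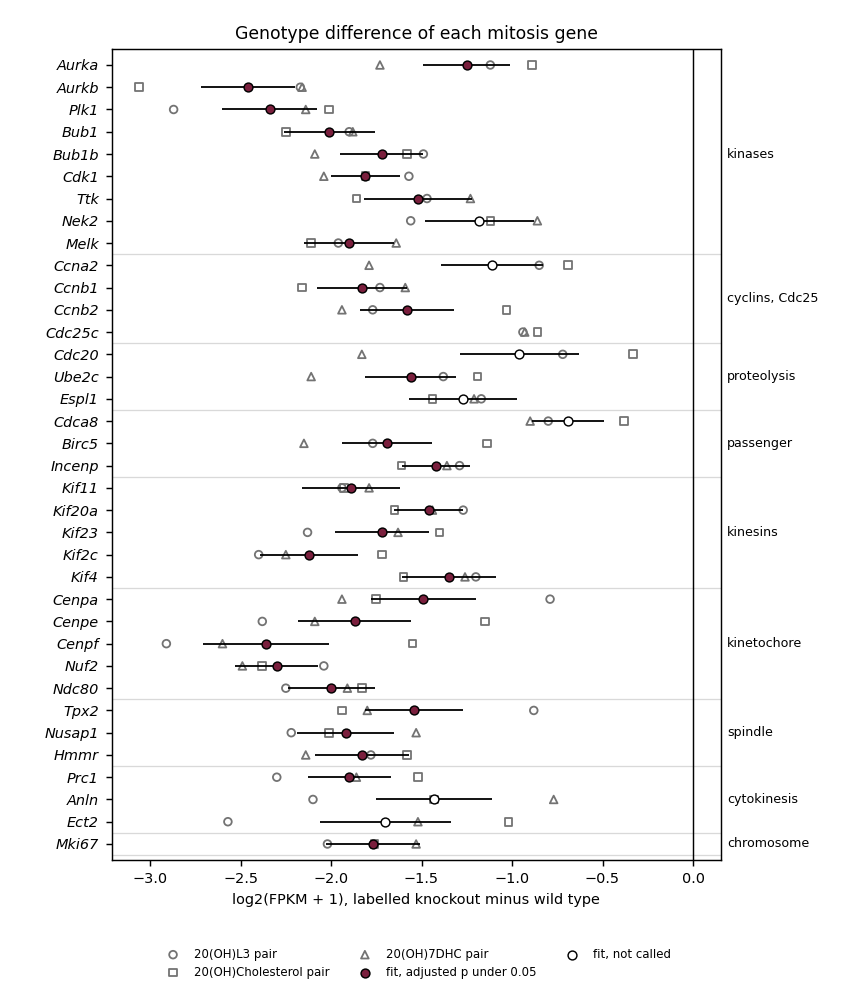
Difference in log2(FPKM + 1) between libraries labelled knockout and wild type on the x axis for 36 mitosis genes grouped by role. Grey symbols are the 3 sterol pairs, circles with bars are the limma estimate ± SE, filled where the adjusted p is under 0.05; every symbol lies below 0, from -3.06 for Aurkb to -0.33 for Cdc20, both with 20(OH)Cholesterol.

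All 5 kinesins fell. Kif11, the motor that pushes spindle poles apart, had 3.38, 3.78 and 3.74 FPKM in wild type and 0.143, 0.251 and 0.373 in the libraries labelled knockout. Wild type was 14.2 times the others on average, and Kif11 fell by 1.89 on the log2(FPKM + 1) scale (SE 0.27, adjusted p = 0.0217). Kif2c, a microtubule depolymerase at centromeres, had 5.61, 5.51 and 5.1 FPKM in wild type and 0.25, 0.975 and 0.284 in the libraries labelled knockout, and fell by 2.12. Kif23 had 6.07, 5.65 and 4.96 FPKM in wild type and 0.614, 1.52 and 0.93 in the libraries labelled knockout, and fell by 1.72. Kif20a, which carries passenger proteins to the central spindle, had 13.4, 14.8 and 12.7 FPKM in wild type and 4.96, 4.02 and 4.05 in the libraries labelled knockout. It had the highest mean of the 5 kinesins in wild type and fell by 1.46 (SE 0.19, adjusted p = 0.0174). Kif4, an X-linked chromokinesin, had 3.78, 4.31 and 3.29 FPKM in wild type and 1.08, 0.754 and 0.795 in the libraries labelled knockout, and fell by 1.35 (adjusted p = 0.042), a call that was lost after quantile normalization.

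Kinetochore genes fell in all 5 cases, with a median of -2.0. Nuf2 and Ndc80 encode partners in the Ndc80 complex that binds microtubules. Nuf2 had 8.9, 8.46 and 7.55 FPKM in wild type and 1.41, 0.823 and 0.522 in the libraries labelled knockout, and Ndc80 had 6.1, 6.67 and 6.14 against 0.494, 1.16 and 0.899. Both fell by similar amounts, 2.30 for Nuf2 (SE 0.23, adjusted p = 0.00884, the smallest of the tested genes) and 2.00 for Ndc80 (SE 0.24, adjusted p = 0.0138). Cenpf, a large corona protein, had 7.22, 4.86 and 6.19 FPKM in wild type and 0.0908, 0.993 and 0.186 in the libraries labelled knockout. It kept the smallest share of its wild-type level, 6.95%, and varied the most in the libraries labelled knockout, its SD of 0.496 FPKM exceeding its mean of 0.423. The lowest of these values rests on about 9 fragments, from the estimated depth and the longest transcript. Cenpe, a kinesin of the kinetochore, had 9.46, 8.32 and 7.84 FPKM in wild type and 1.01, 3.21 and 1.07 in the libraries labelled knockout, and fell by 1.87. Cenpa had 15.3, 22.1 and 16.4 FPKM in wild type and 8.43, 5.86 and 3.51 in the libraries labelled knockout. It fell by 1.49 (SE 0.29, adjusted p = 0.0426), and the call was lost after quantile normalization, with the length trend removed and without the intensity trend.

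Spindle genes fell in all 3 cases. Tpx2, which activates Aurora A and nucleates microtubules, had 16.3, 16.5 and 16.6 FPKM in wild type and 8.37, 3.57 and 4.08 in the libraries labelled knockout. Wild type was nearly constant, the library labelled knockout with 20(OH)L3 was above the others, and the difference was -1.54 (SE 0.27, adjusted p = 0.036). Nusap1, a microtubule bundler near chromosomes, had 5.32, 5.85 and 4.31 FPKM in wild type and 0.358, 0.697 and 0.843 in the libraries labelled knockout, and fell by 1.92. Hmmr, a spindle pole factor and hyaluronan receptor, had 4.46, 5.55 and 5.3 FPKM in wild type and 0.595, 1.19 and 0.426 in the libraries labelled knockout, and fell by 1.83.

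Of the 3 cytokinesis genes only Prc1 was called. It had 15.8, 18.4 and 16.5 FPKM in wild type and 2.39, 5.74 and 3.81 in the libraries labelled knockout, and fell by 1.90 (SE 0.23, adjusted p = 0.0138). Ect2, which activates RhoA at the cell equator, had 7.93, 4.79 and 5.76 FPKM in wild type and 0.501, 1.86 and 1.35 in the libraries labelled knockout. Anln, a scaffold of the contractile ring, had 5.43, 6.63 and 6.0 FPKM in wild type and 0.505, 1.82 and 3.11 in the libraries labelled knockout. Both were lowest in the library labelled knockout with 20(OH)L3 and had wide errors. The differences were -1.70 for Ect2 (SE 0.36, limma adjusted p = 0.0538) and -1.43 for Anln (SE 0.32, limma adjusted p = 0.059). Ect2 and Anln were called with a robust prior. They were also called in a fit without sterol as a term, as were Nek2, Ccna2 and Espl1. Espl1 was called without the intensity trend too. Mki67, which coats mitotic chromosomes and encodes the Ki-67 antigen, had 4.45, 4.9 and 3.65 FPKM in wild type and 0.341, 0.741 and 0.606 in the libraries labelled knockout, and fell by 1.77 (SE 0.26, adjusted p = 0.0237).

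The listed genes without a row of their own are given by their merged rows, whose values cannot be assigned to 1 gene. The row that merges Top2a, the topoisomerase that untangles sister chromatids, with Gm23451 had 53.4, 71.5 and 53.2 FPKM in wild type and 5.84, 11.6 and 5.8 in the libraries labelled knockout. This row fell by 2.84 (SE 0.20, adjusted p = 0.0038). The row that merges Foxm1, an activator of late cell cycle genes, with Nrip2, Gm44596 and 4933413G19Rik had 6.94, 8.04 and 7.87 FPKM in wild type and 3.73, 2.66 and 4.19 in the libraries labelled knockout. It was not called, at -0.94 (SE 0.22, adjusted p = 0.0646).

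Within each sterol there was 1 library per genotype, so the pairs are values without a test. With 20(OH)L3, 30 of the 36 genes were at least 2-fold lower in the library labelled knockout on the log2(FPKM + 1) scale, where 16.5% of tested rows were, and the median log2 difference was -1.77. The counts were 31 with 20(OH)Cholesterol, where 15.4% of rows were, and 32 with 20(OH)7DHC, where 10.1% were, with medians of -1.59 and -1.79. No gene was higher in the library labelled knockout with any sterol. The 36 genes summed to 410, 456 and 413 FPKM in wild type and to 119, 141 and 91 in the libraries labelled knockout. Spread was wider among the latter, where the SD was 40.5% of the mean for the median gene, against 10.0% in wild type. Levels were also lower there, with a median mean of 1.5 FPKM against 7.3, and the part of low fragment counts in this spread was not tested. Of the libraries labelled knockout, that with 20(OH)Cholesterol was the highest for 22 of the 36 genes, and that with 20(OH)L3 was the lowest for 17. Among the wild-type libraries, that with 20(OH)Cholesterol was likewise the highest, for 21 genes, and that with 20(OH)7DHC was the lowest for 17. The order of the genes by mean FPKM was nearly kept between genotypes, with a Spearman correlation of 0.926 across 36 genes that share the same libraries.

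Values in FPKM moved with transcript length in the libraries labelled knockout with 20(OH)L3 and 20(OH)Cholesterol. Over all tested protein-coding genes, the median log2 difference with 20(OH)L3 went from 1.23 for longest transcripts under 1 kb to -0.37 for those of 6 kb and over, and with 20(OH)Cholesterol from 1.01 to -0.39. With 20(OH)7DHC it stayed between -0.03 and 0.02. The mitosis genes had longest transcripts of 1531 to 11130 nt, and their medians lay below those of all genes in each length class that held any of them. For 1 to 2 kb (4 genes) they were -1.44, -0.96 and -1.88 with the 3 sterols, against 0.53, 0.49 and 0.02 over all genes. For 3 to 4 kb (14 genes) they were -1.77, -1.60 and -1.87, against -0.12, -0.13 and -0.03. With each library's length trend removed, over 11533 single-gene rows, 27 of the 35 genes were called lower and their median was -1.63. In that fit 869 of all rows were called lower and 435 higher. With the trend kept over the same rows, 29 of the 35 genes were called lower, with 838 of all rows lower and 348 higher.

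**Figure D4:**
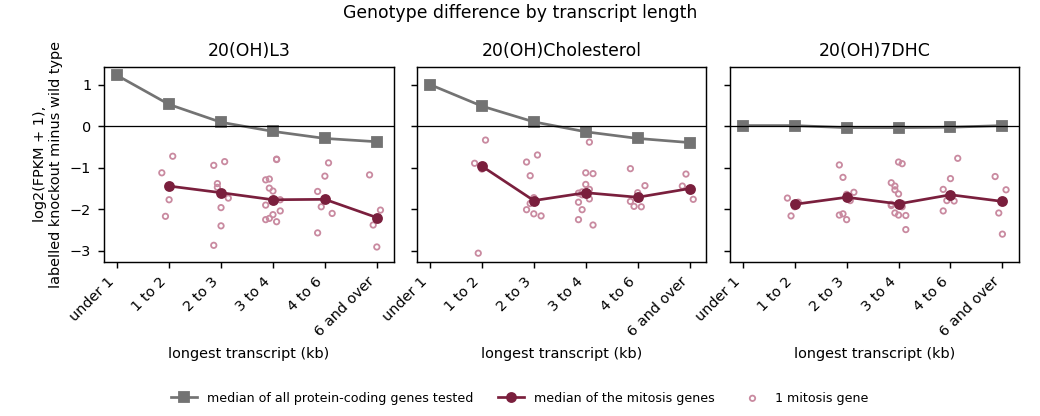
Difference in log2(FPKM + 1) between the library labelled knockout and wild type, by length of the longest transcript in kb, in 1 panel per sterol. Grey squares are medians of all tested protein-coding genes, dark circles medians of the mitosis genes and open circles single mitosis genes; the grey line slopes from 1.23 to -0.37 with 20(OH)L3 and is flat with 20(OH)7DHC, and the mitosis medians lie below it in the 5 classes that hold mitosis genes.

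The sterols were compared at 100 nM and 24 h in the same fit, each with 1 library per genotype. All 3 carry an added hydroxyl group on the side chain; 7-dehydrocholesterol has an additional double bond in the B ring compared with cholesterol, and lumisterol is a stereoisomer of 7-dehydrocholesterol. In none of the 3 pairs did a mitosis gene pass, and none of the 35 tested genes had an unadjusted limma p under 0.05. Over all rows 0.0395% passed for 20(OH)L3 against 20(OH)7DHC, 0.0395% for 20(OH)Cholesterol against 20(OH)7DHC and 0% for 20(OH)L3 against 20(OH)Cholesterol. Median log2 differences of the 35 genes were 0.04, 0.23 and -0.22 in these pairs, against 0.00, 0.02 and -0.01 over all rows. Anln had the largest difference, -0.79 for 20(OH)L3 against 20(OH)7DHC, with a 95% interval from -1.80 to 0.23. Ccnb2 had 0.79 for 20(OH)Cholesterol against 20(OH)7DHC, with an interval from -0.02 to 1.61. For Cdk1 the intervals in the 3 pairs were -0.79 to 0.43, -0.45 to 0.78 and -0.96 to 0.27. Half-widths of 0.81 at the median leave room for differences near 2-fold, so these data do not show that the sterols act alike on mitosis genes.

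Other genes of cell division were counted in 6 lists, to be read against the 6.64% of all rows that fell and the 2.43% that rose; differences between lists were not tested. Of 28 tested genes among other spindle factors and mitotic kinesins, 12 fell, none rose and the median was -1.41. Ckap2, a microtubule-associated protein of the spindle, fell from 30.2 ± 2.37 to 5.43 ± 0.69 FPKM (SD over the 3 sterols, n = 3). Its log2 difference was -2.28 (limma adjusted p = 0.00541). Pbk, a mitotic kinase, fell from 16.8 ± 4.59 to 3.32 ± 1.11 FPKM. Of 34 other checkpoint and kinetochore genes, 7 fell, none rose and the median was -0.95. Hjurp, the chaperone that deposits Cenpa, fell by 1.58 (adjusted p = 0.0164), and Cenpn, which binds the Cenpa nucleosome, by 1.57.

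Of 20 condensin and cohesin genes, 5 fell, where 6.64% of all rows did, and the median was -0.60. Ncaph, a condensin I subunit, fell from 12.0 ± 0.49 to 1.68 ± 0.702 FPKM (SD over the 3 sterols, n = 3). Its log2 difference was -2.31 (limma adjusted p = 0.00891). Ncapg2, a condensin II subunit, fell by 1.70. In the next pair of lists the counts were near that share of all rows. Of 22 kinases and phosphatases of mitotic entry and exit, Nek6 (log2 -1.56) and Mastl, which encodes the Greatwall kinase (log2 -1.46), fell and none rose. Of 21 transcription factors of the DREAM, MuvB and E2F groups, E2f8, a repressor of late S phase (log2 -1.82), and Rbl1, which encodes the pocket protein p107 (log2 -1.54), fell and none rose.

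Genes of the anaphase-promoting complex had no common direction in the fit. Of 16 genes, 2 fell. Fbxo5, which encodes the inhibitor Emi1, fell from 10.7 ± 0.519 to 1.65 ± 0.425 FPKM (SD over the 3 sterols, n = 3). Its log2 difference was -2.16 (limma adjusted p = 0.00973). Cdc23, a core subunit, fell by 1.66 (limma adjusted p = 0.0481). None rose, 7 of the 16 had a difference below 0, and the median was 0.04. All 6 lists are given with the length trend kept. The part of transcript length in their differences was not tested.

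**Figure D5:**
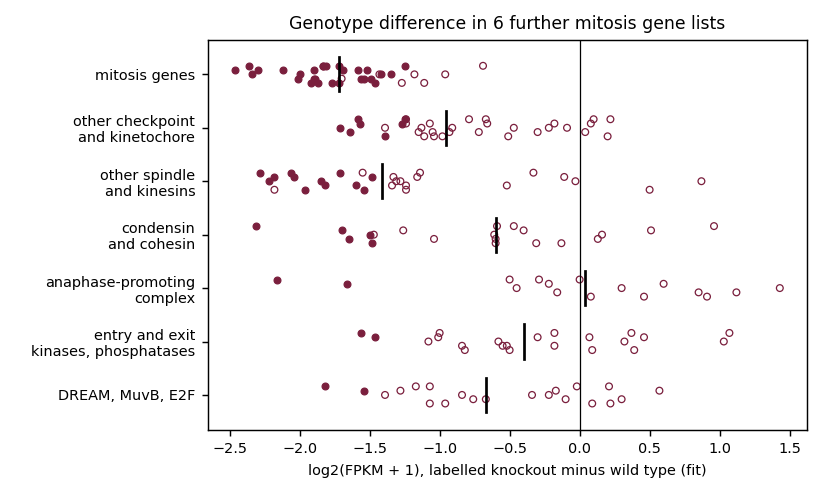
Limma estimate of the difference in log2(FPKM + 1) between libraries labelled knockout and wild type for single genes of the mitosis list and of 6 further lists, with filled circles for adjusted p under 0.05 and a black line at each median. The medians go from -1.72 for the mitosis genes to 0.04 for the anaphase-promoting complex, with the length trend kept.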

How the data were processed

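RNA-seq of 6 mouse dermal fibroblast libraries was analysed from 1 deposited table of 46958 rows in FPKM, the unit per the file header. STAR 2.5.4b, Cufflinks 2.2.1, Cuffdiff and the build GRCm38 are named per the submitters' processing notes. The sources used here do not give the annotation, strand setting or filters, so a gene and an antisense or pseudogene partner cannot be told apart.

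The 12673 rows whose mean reached 1 FPKM were put on the log2(FPKM + 1) scale. Additive effects of genotype and sterol were estimated with limma 3.58.1 (R 4.3.3) under an intensity trend, 2-sided, with Benjamini-Hochberg adjustment over all rows at 0.05 (2 residual and 3 prior degrees of freedom), after the script was tested on simulated data. Pairs within a sterol have no test. Libraries are named by their genotype labels, and the level of the targeted gene is not reported here. With 1 library of pooled cells per genotype and sterol, p-values rest on how the genotype difference varied between the 3 sterols, moderated over all rows. That variation holds sterol effects and library noise together. Spread between animals or cultures of a condition was not measured.

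Depth was estimated from transcripts of 900 to 4000 nt, where 96.9% to 97.8% of low values were whole multiples of 1 fragment within 0.05, with 200 nt taken off the transcript length (GENCODE M21). Of 5 such offsets tried (0, 100, 150, 200 and 250 nt), 200 nt was kept for its share of whole values, the others giving 30.8% to 73.6%. The fragment number was scanned for the highest share, so these shares are maxima. Promoter windows came from RefSeq (GRCm38.p6), and the motifs and the genes printed were chosen after an exploratory look at the matches. All 38 listed genes were named. From each further list the 2 with the smallest adjusted p were named, and rows with a repeated symbol were left out. Members and lists were chosen with earlier results of these data known. Python 3.11.15, numpy 2.4.6, pandas 2.3.3 and matplotlib 3.10.9 were used.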

Additional observations from a re-analysis of the deposited data

How the results depend on the processing

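Each of the 35 tested mitosis genes was lower in the libraries labelled knockout under every alternative that tested it. The count called lower was 28. It was 1 with no filter on low values and 14 of 17 with a mean of at least 5 FPKM, where fewer genes were tested. It was 0 without the sterol 20(OH)L3 or 20(OH)Cholesterol and 17 without 20(OH)7DHC. Leaving out single libraries gave 0 to 16, all with 1 residual degree of freedom. A library without its sterol partner adds nothing to the genotype estimate. Leaving out a library or its whole sterol is therefore the same check of that estimate. With another pseudocount, scaling, prior or no sterol term, or over single-gene rows (chosen after seeing the data), it stayed within 1.5 times. The median difference of -1.72 was -2.36 with a pseudocount of 0.1, -1.56 with the stricter filter and -1.45 after quantile normalization, and -1.80 to -1.65 with single libraries left out. Where no cause is named, the cause was not tested. Over all rows, 842 lower and 308 higher calls became 242 and 25 with no filter. With the stricter filter they were 652 and 347 of 8933 rows. They were 842 and 576 after quantile normalization, and 1336 and 735 without the sterol term. With single libraries left out they were 0 to 830 and 0 to 1095. Without 20(OH)L3, 20(OH)Cholesterol or 20(OH)7DHC they were 121 and 6, 0 and 0, and 871 and 1139. Genotypes were paired by sterol through the sterol term, and without that pairing 33 of the 35 genes were called lower. About 24 to 2519 fragments in all lay behind the labelled-knockout values of a gene, and low ones are imprecise.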
